A study of Mus musculus with 20 samples.

Results

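The genes described here are 44 genes of glucose, glycogen and fructose metabolism, out of 55573 gene IDs with counts and 13783 genes tested in mouse liver. They were chosen by name and matched by symbol to gene IDs of the mouse genome build GRCm38. They fall into 6 branches: 13 genes of glycolysis, 6 of gluconeogenesis, 8 of glycogen metabolism, 5 of fructose and galactose metabolism, 8 of the pentose phosphate pathway and 4 of the pyruvate dehydrogenase complex. All 44 were found and all 44 passed the filter on low counts.

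The 4 groups held 5 male mice each. Titan mice come from a non-inbred line bred for 45 years for high body mass, and the control mice from the unselected line kept beside it. Both lines were sampled at 11 weeks and at 19-21 weeks of age, with free access to the same standard breeding diet. The comparison is of 1 selected with 1 unselected line, so that selection and other differences between the lines cannot be told apart, and the hours without food before sampling are not given in the sources used here. Levels are given as CPM (reads on a gene per 1000000 reads on all genes, scaled between libraries), and listed in the order of the mouse numbers 1 to 5, which carry no order in time. In whole liver, fewer cells of a type and less RNA per cell cannot be told apart.

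Liver takes up glucose through the transporter GLUT2, traps it as a phosphate ester, and either stores it as glycogen or breaks it down by glycolysis to pyruvate, which the pyruvate dehydrogenase complex turns into acetyl-CoA for oxidation and fat synthesis. Between meals it releases glucose by glycogen breakdown and by gluconeogenesis, which runs from pyruvate and lactate back to glucose. Fructose enters through its own kinase past the main control step of glycolysis, and the pentose phosphate pathway yields NADPH for fat synthesis and ribose phosphate for nucleotides.

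Between 6794935 and 23295028 reads per library fell on genes. The 7 matched hepatocyte markers were all detected, and their summed level overlapped between the groups (86753 to 106302 CPM in 11-week-old Titan mice and 82688 to 106879 CPM in 11-week-old controls). Summed levels of the marker lists for periportal hepatocytes, blood, Kupffer cells, leukocytes, stellate cells, bile duct cells and skeletal muscle also overlapped between the lines at both ages. The 7 pericentral hepatocyte markers, all of them detected, summed to 2406 to 3947 CPM in 11-week-old Titan mice and 3962 to 5562 CPM in 11-week-old controls, without overlap, and to 4141 to 5976 and 4448 to 5641 CPM in Titan and control mice of 19-21 weeks. Of these 7, 3 had no overlap at 11 weeks (Cyp2e1, Cyp1a2 and Lgr5), while Glul, which marks the cells next to the central vein, had 450.0 to 545 CPM in Titan mice and 378 to 603 in controls. The 6 endothelial markers summed to 239 to 288 CPM in 11-week-old Titan mice and 289 to 332 CPM in 11-week-old controls, and to 242 to 300.3 and 289 to 311 CPM in Titan and control mice of 19-21 weeks. The 5 adipocyte markers summed to 0.924 to 8.28 CPM in 11-week-old Titan mice and 0.0690 to 0.167 CPM in 11-week-old controls, nearly all of it from Cidea, while Adipoq was at 0 in every 11-week-old control and at most 0.199 CPM elsewhere; at 19-21 weeks the sums were 0.0843 to 39.9 and 0.0540 to 0.503 CPM. Of the 5 pancreas markers, 4 were at 0 in every mouse, and the sum, all from the remaining one, was lower in Titan mice than in controls at both ages (5.78 to 11.3 against 21.8 to 40.2 CPM at 11 weeks). The part of these cell markers in the results below was not tested.

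At 11 weeks, 16 genes from all 6 branches were higher in Titan liver, and Sord, Galt and H6pd were lower. Of the 44 genes, 16 were higher in Titan than in control mice (36.4%, beside 7.23% of all tested genes) and 3 were lower (6.82%, beside 7.69%), by edgeR's quasi-likelihood test, with p-values adjusted by Benjamini and Hochberg's method across the 13783 genes and 0.05 as threshold. The median log2 fold change was 0.35 over the 44 genes and -0.02 over all tested genes. At 19-21 weeks, 2 of the 44 were higher (4.55%, beside 4.24%) and none was lower (beside 4.88%), with medians of -0.05 and 0.01. At an unadjusted p under 0.05, 7 of the 44 differed at that age, and DESeq2 called 3 higher and 2 lower. In 6 of the 10 fits that left out 1 mouse (each of Titan mice 1, 2, 3 and 5 and control mice 2 and 4), the genes lower at 11 weeks numbered 1, Sord. By branch, the genes higher at 11 weeks were 4 of 13 in glycolysis, 1 of 6 in gluconeogenesis, 2 of 8 in glycogen metabolism, 3 of 5 in fructose and galactose metabolism, 4 of 8 in the pentose phosphate pathway and 2 of 4 in the pyruvate dehydrogenase complex.

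**Figure D1:**
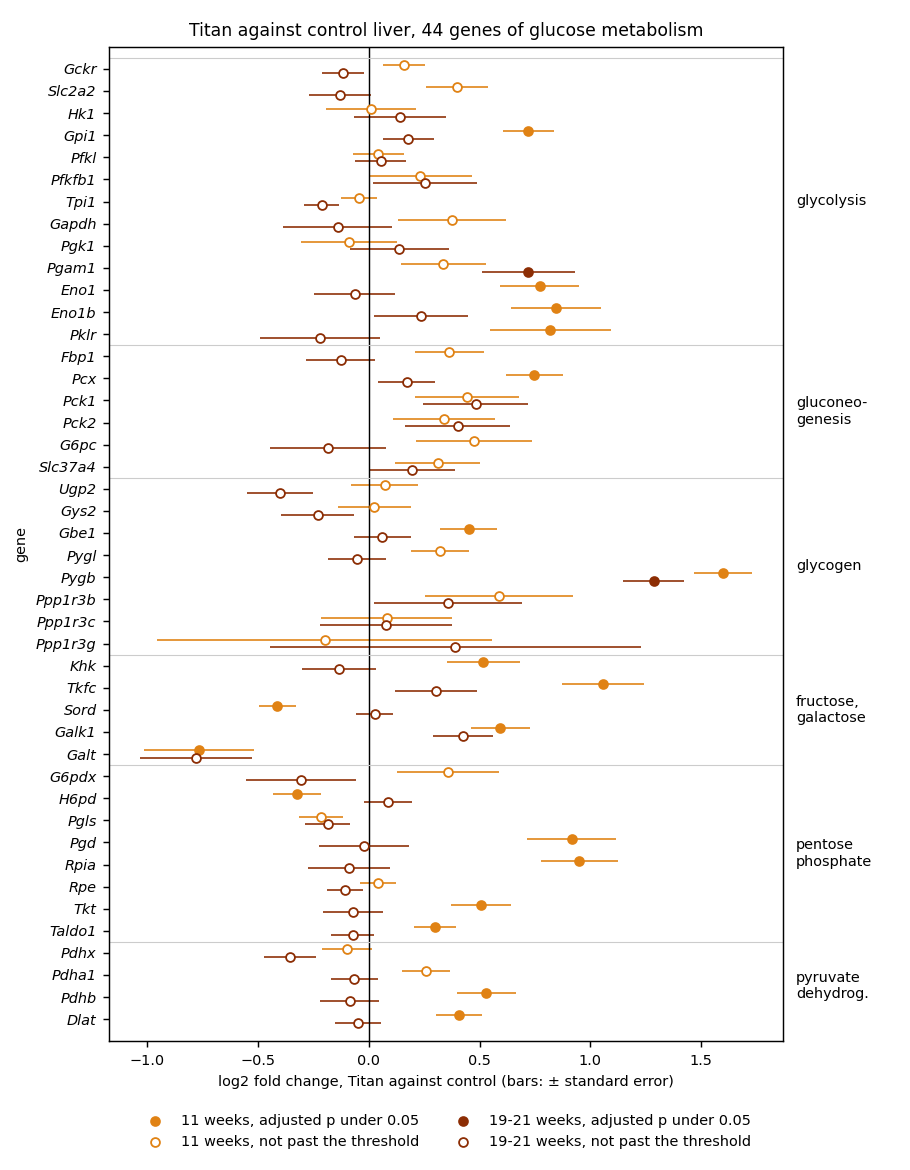
Log2 fold change of Titan against control liver (x axis) for the 44 genes (y axis, grouped by branch), at 11 weeks (orange) and 19-21 weeks (brown), with standard errors as bars and filled points for an adjusted p under 0.05. At 11 weeks 19 points are filled, 16 of them to the right of 0, and at 19-21 weeks 2 are filled, Pygb and Pgam1.

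One mouse stood apart from its group in these genes. Among the 16 genes higher at 11 weeks, Titan mouse 4 had the lowest level of the 5 Titan mice for 15, and for 11 it lay below the highest control mouse. Its median log2 ratio to the mean of the 11-week-old controls over the 16 genes was 0.10, against 0.59 to 1.01 in the other 4 Titan mice. Its summed pericentral markers, 3947 CPM, were the highest of the 5 Titan mice, next to the lowest control mouse. Its library had 10465526 reads on genes, the fewest of its group, and 49.8% of its reads fell on genes, within the group's range of 48.2% to 56.6%. Without Titan mouse 4, 20 of the 44 genes were higher (45.5%, beside 7.40% of all tested genes) and 3 lower (6.82%, beside 7.38%), which include all 16 and all 3 of the calls with every mouse. The 4 genes added were Slc2a2, Fbp1, Pygl and Pdha1. Mouse 4 was picked out by its low levels in genes of this set. The larger number without it, and the larger differences of single genes without it given below, are thus not separate support for them. Without Titan mouse 1, 2, 3 or 5, the genes higher numbered 13, 12, 14 and 12. With every mouse kept, the 5 Titan mice all lay above the 5 controls for 4 of the 44 genes (Pcx, Pygb, Rpia and Dlat; 5.84% of all tested genes did so) and all below them for 1 (Sord; 6.08%). At 19-21 weeks the Titan mice all lay above the controls for 3 of the 44 (Gpi1, Pygb and Galk1; 3.62% of all tested genes) and all below them for 1 (Tpi1; 4%).

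**Figure D2:**
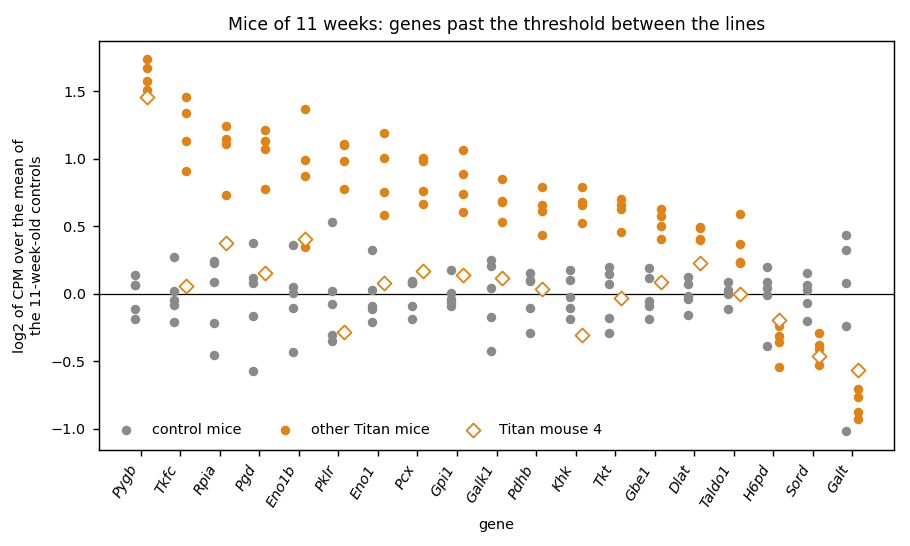
Log2 ratio of each 11-week-old mouse's CPM to the mean of the 5 controls of that age (y axis), for the 19 genes past the threshold between the lines at 11 weeks (x axis). Orange points are Titan mice, grey points controls and the open diamond is Titan mouse 4, which lies lowest of the Titan mice for 15 of the 16 genes that were higher.

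Promoter sequences were searched for letters of factors known to act on these genes in liver. RefSeq windows (GRCm38.p6) matched 41 of the 44 genes with 54 windows, since a gene can have several start sites, and the 250 bases before each start site were searched on both strands for 5 motifs. The carbohydrate response element, at which the glucose-responsive factor ChREBP binds, was searched as CACGNG and CNCGTG with 5 bases between them and stood in 1 of the 54 windows, that of Pklr, and in 0.0396% of all 32851 windows. In Pklr it lies 170 to 154 bases before the start site. The E-box CACGTG, a shorter sequence recognised by several factors and not held by that match, stood in 5 of the 54 windows (9.26%), which belong to 5 genes, and in 6.02% of all windows. Of these 5 genes, Khk, Pcx and Galk1 were higher in Titan mice at 11 weeks, Galt was lower, and Ppp1r3c differed by a log2 fold change of 0.08 (adjusted p = 0.905). The cyclic AMP response element TGACGTCA (1.55% of all windows), the sterol response element (ATCAC followed directly by CCCAC, 0.0731%) and the HNF1 motif (GTTAAT and ATTAAC with 1 base between them, 0.00913%) stood in none of the 54. Shown, because they hold the match, are the stretches free of annotated exons for the genes higher at 11 weeks, 5′ to 3′ on the gene's strand, with the match in capitals: Pklr (chr3:89136373-89136571, plus strand), Pcx (chr19:4510222-4510471, plus strand) and Galk1 (chr11:116012720-116012969, minus strand). The Pklr stretch lies ahead of the liver form's start site, in an intron of the longer transcripts of the gene.
Pklr: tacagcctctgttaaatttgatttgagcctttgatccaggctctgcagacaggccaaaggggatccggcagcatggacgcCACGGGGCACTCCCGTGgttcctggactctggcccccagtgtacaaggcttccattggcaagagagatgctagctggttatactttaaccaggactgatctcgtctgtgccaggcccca
Pcx: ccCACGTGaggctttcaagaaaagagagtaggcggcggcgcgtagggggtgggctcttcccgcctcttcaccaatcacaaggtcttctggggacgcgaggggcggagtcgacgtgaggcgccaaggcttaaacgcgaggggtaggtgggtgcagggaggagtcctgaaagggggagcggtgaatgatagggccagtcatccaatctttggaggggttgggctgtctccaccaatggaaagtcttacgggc
Galk1: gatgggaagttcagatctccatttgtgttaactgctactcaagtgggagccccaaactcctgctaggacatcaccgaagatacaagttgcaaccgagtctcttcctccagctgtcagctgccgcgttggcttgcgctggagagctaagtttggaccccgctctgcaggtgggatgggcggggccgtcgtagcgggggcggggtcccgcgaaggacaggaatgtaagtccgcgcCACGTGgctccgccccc
A match is a description of the letters and not evidence of binding. Only these letters were searched, some of them rare in all windows, so the lack of a match does not show that a gene lacks a site.

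In glycolysis, 4 of 13 genes were higher in 11-week-old Titan mice, Gpi1, Eno1, Eno1b and Pklr, and none was lower. Gpi1 (ENSMUSG00000036427, chromosome 7, 34201330 to 34230336) encodes the isomerase that interconverts the phosphates of glucose and fructose. It had 147, 130.1, 107, 77.2 and 117 CPM in 11-week-old Titan mice and 67.1, 68.1, 65.97, 79.1 and 70.5 in controls of that age. At 19-21 weeks it had 72.6, 72.2, 78.9, 79.6 and 71.2 CPM in Titan mice and 62.8, 70.9, 63.1, 63.9 and 70.1 in controls. Gpi1 was higher in Titan mice of 11 weeks (log2 fold change 0.72 ± 0.11 SE, adjusted p = 0.000195), all but mouse 4 above every control. At 19-21 weeks the Titan mice again all lay above the controls, but the difference was small and did not pass the threshold (log2 fold change 0.18 ± 0.11 SE, adjusted p = 0.358). Eno1 (ENSMUSG00000063524, chromosome 4, 150236721 to 150248879), the enolase of most tissues, had 46.3, 52.7, 34.5, 24.4 and 38.95 CPM in 11-week-old Titan mice and 23.5, 19.9, 28.9, 21.7 and 21.3 in controls. Titan mice of 11 weeks had more of it (log2 fold change 0.77 ± 0.18 SE, adjusted p = 0.00505), with mouse 4 below the highest control. At 19-21 weeks Eno1 had 16.04, 29.2, 22.00, 27.2 and 21.8 CPM in Titan mice and 30.4, 25.6, 22.2, 24.8 and 19.1 in controls, and the groups overlapped throughout (log2 fold change -0.06 ± 0.18 SE, adjusted p = 0.872).

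Eno1b (ENSMUSG00000059040, chromosome 18, 48045335 to 48048412), a near copy of Eno1, had 16.3, 12.5, 8.03, 8.34 and 11.6 CPM in 11-week-old Titan mice and 6.33, 4.66, 6.54, 8.11 and 5.86 in controls. The lines differed at that age (log2 fold change 0.85 ± 0.20 SE, adjusted p = 0.00634), with mice 3 and 4 close to the highest control. Mice of 19-21 weeks had 4.21, 7.23, 9.24, 7.67 and 6.80 CPM in Titan and 6.95, 5.78, 6.31, 6.59 and 4.36 in control liver, which overlapped (log2 fold change 0.24 ± 0.21 SE, adjusted p = 0.532). Reads that match both genes equally are not in the counts. Eno1 has 10 near copies, 9 of them pseudogenes, and reads shared with those are missing too. The counts of the pair were also added and tested as 1 gene, which does not bring the shared reads back. The sum of Eno1 and Eno1b was 50.7 ± 13.6 CPM in Titan mice and 29.4 ± 4.02 in controls of 11 weeks as mean ± SD of 5 mice each (log2 fold change 0.79 ± 0.17 SE, adjusted p = 0.00336), and 30.3 ± 6.39 and 30.4 ± 5.03 CPM at 19-21 weeks (log2 fold change -0.00 ± 0.18 SE, adjusted p = 0.999). The share of Eno1b in the reads of both was 22.5 ± 3.36% in Titan mice and 21.5 ± 3.47% in controls at 11 weeks (two-sided exact permutation p = 0.643, adjusted over 16 tests 0.857), and 23.2 ± 3.85% and 19.8 ± 1.72% at 19-21 weeks (exact permutation p = 0.0873, adjusted 0.339).

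Pklr (ENSMUSG00000041237, chromosome 3, 89136142 to 89146784) encodes the pyruvate kinase of liver, the last step of glycolysis. It had 466, 469, 373, 179 and 430.5 CPM in 11-week-old Titan mice and 221, 176, 171, 206 and 314 in controls. Pklr at 19-21 weeks had 74.8, 210.5, 163, 141 and 196 CPM in Titan mice and 269, 193, 146, 183 and 124 in controls. Of the 11-week-old Titan mice, 4 lay above every control and mouse 4 lay among the lower controls. The difference at 11 weeks was at the threshold (log2 fold change 0.82 ± 0.27 SE, adjusted p = 0.0475), and it stayed past it in 2 of the 10 fits that left out 1 mouse, those without Titan mouse 4 and without control mouse 5. At 19-21 weeks the lines overlapped (log2 fold change -0.22 ± 0.27 SE, adjusted p = 0.666). Pgam1 (ENSMUSG00000011752, chromosome 19, 41911923 to 41918660), a phosphoglycerate mutase, had 20 to 132 reads per library. It had 5.31, 5.63, 3.94, 4.37 and 5.55 CPM in Titan mice and 2.70, 4.25, 4.26, 5.49 and 2.90 in controls at 11 weeks (log2 fold change 0.34 ± 0.19 SE, adjusted p = 0.275). In mice of 19-21 weeks it had 3.67, 2.83, 4.74, 5.31 and 3.74 CPM in Titan mice and 2.32, 3.07, 2.21, 2.64 and 2.18 in controls. Pgam1 was then higher in Titan mice (log2 fold change 0.72 ± 0.21 SE, adjusted p = 0.0353), with Titan mouse 2 below the highest control, and the call held in 5 of the 10 fits that left out 1 mouse. Its mean was lower at 19-21 than at 11 weeks in both lines, 4.06 and 4.96 CPM in Titan mice and 2.48 and 3.92 in controls. Slc2a2 (ENSMUSG00000027690, chromosome 3, 28697903 to 28731359), which encodes GLUT2, had 542, 619, 465, 376 and 555 CPM in 11-week-old Titan mice and 442, 403, 369, 385 and 341 in controls. This difference missed the threshold with all mice (log2 fold change 0.40 ± 0.14 SE, adjusted p = 0.0630) and passed it without Titan mouse 4 (log2 fold change 0.49, adjusted p = 0.0177). At 19-21 weeks Slc2a2 had 373, 494, 392, 333 and 389.5 CPM in Titan mice and 502, 363, 512, 464 and 326 in controls, with overlap.

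The other 7 glycolysis genes, Gckr, Hk1, Pfkl, Pfkfb1, Tpi1, Gapdh and Pgk1, had log2 fold changes from -0.09 (Pgk1) to 0.38 (Gapdh) at 11 weeks and from -0.21 (Tpi1) to 0.25 (Pfkfb1) at 19-21 weeks, with no adjusted p under 0.05. Pfkl, the phosphofructokinase of liver, was close between the lines at both ages, with 36.99 ± 6.83 CPM in Titan mice and 35.9 ± 3.96 in controls at 11 weeks (log2 fold change 0.04 ± 0.11 SE). Tpi1, triosephosphate isomerase, was the glycolysis gene whose 19-21-week-old Titan mice all lay below the controls (185 to 217 against 218 to 246 CPM, adjusted p = 0.101). Of the 44 genes, 14 have another gene whose transcript matches their coding sequence over at least 100 bases at 90% identity, and reads shared with it are not counted. Gapdh had 217 such genes, 211 of them pseudogenes. Only 21 to 116 reads per library were left to it, so its mean level of 5.08 CPM is a level of unshared reads. Pgk1 and Pgam1, with 4 and 3 pseudogenes of this kind, are limited in the same way.

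In gluconeogenesis, 1 of 6 genes was higher in 11-week-old Titan mice, none lower, and none passed the threshold at 19-21 weeks. Pcx (ENSMUSG00000024892, chromosome 19, 4510472 to 4621752) encodes pyruvate carboxylase, which turns pyruvate into oxaloacetate at the start of gluconeogenesis. It had 889, 876, 751, 498 and 702 CPM in 11-week-old Titan mice and 390.0, 469, 416, 468 and 474 in controls. Every Titan mouse lay above every control, mouse 4 nearest to them (log2 fold change 0.75 ± 0.13 SE, adjusted p = 0.000458). At 19-21 weeks Pcx had 391, 538, 530.4, 462 and 535 CPM in Titan mice and 412, 472, 391, 426 and 481 in controls, and the lines overlapped (log2 fold change 0.17 ± 0.13 SE, adjusted p = 0.442). Fbp1 (ENSMUSG00000069805, chromosome 13, 62864753 to 62888282), the liver's fructose bisphosphatase, had 1268, 1122, 832, 635 and 906 CPM in Titan mice and 631, 858, 771, 816 and 628 in controls at 11 weeks. This missed the threshold (log2 fold change 0.36 ± 0.16 SE, adjusted p = 0.132) and passed it without Titan mouse 4 (log2 fold change 0.48, adjusted p = 0.0277). At 19-21 weeks Fbp1 had 388, 620.0, 543, 612 and 587 CPM in Titan mice and 624, 615, 521, 622 and 621 in controls, with overlap.

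Pck1 (ENSMUSG00000027513, chromosome 2, 173153048 to 173159273), the cytosolic phosphoenolpyruvate carboxykinase, had the highest level per length of the 44 genes (428 CPM per kilobase of exon, mean of 20 mice), followed by Fbp1 (418) and G6pc (249). It had 1925, 1313, 1928, 1473 and 1457 CPM in Titan mice and 1528, 1460.1, 1029, 545 and 1392 in controls at 11 weeks. In the older mice it had 1691, 2507, 1516, 1894 and 1319.8 CPM in Titan mice and 929.7, 986, 1623, 1617 and 1236 in controls. The mean was higher in Titan mice at both ages by a like amount, within the spread between mice (log2 fold change 0.44 ± 0.24 SE, adjusted p = 0.237 at 11 weeks; log2 fold change 0.48 ± 0.24 SE, adjusted p = 0.218 at 19-21 weeks). Pck2 (ENSMUSG00000040618, chromosome 14, 55540266 to 55551242), the mitochondrial form, had 10 to 46 reads per library. It had 2.21, 2.81, 2.19, 2.48 and 1.93 CPM in Titan mice and 2.19, 1.58, 2.18, 1.22 and 1.93 in controls at 11 weeks. Older mice had 3.26, 2.74, 1.82, 2.28 and 2.80 CPM in Titan mice and 2.40, 1.08, 2.10, 1.32 and 2.68 in controls. The share of Pck2 in the reads of both genes was 0.148 ± 0.0427% in Titan mice and 0.165 ± 0.0498% in controls at 11 weeks (exact permutation p = 0.587), and 0.151 ± 0.0478% and 0.159 ± 0.0748% at 19-21 weeks (exact permutation p = 0.802), so that Pck1 gave nearly all reads in every mouse. G6pc, the glucose phosphatase that releases free glucose, varied widely between mice (587 to 1216 CPM in 11-week-old Titan mice, 357 to 940.2 in controls of that age; log2 fold change 0.48 ± 0.26 SE, adjusted p = 0.252). Slc37a4, the transporter that brings it its substrate, had a log2 fold change of 0.31 at 11 weeks and 0.19 at 19-21 weeks, neither past the threshold.

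In glycogen metabolism, Pygb and Gbe1 were higher in Titan mice at 11 weeks, Pygb alone at 19-21 weeks, and none of the 8 was lower. Pygb (ENSMUSG00000033059, chromosome 2, 150786735 to 150831758) encodes the glycogen phosphorylase first described in brain, and Pygl the liver form. Pygb had 19.6, 18.8, 16.8, 16.2 and 17.6 CPM in Titan mice and 6.16, 6.50, 5.45, 6.16 and 5.17 in controls at 11 weeks. At 19-21 weeks Pygb had 9.24, 9.18, 8.75, 15.01 and 10.3 CPM in Titan mice and 4.03, 4.15, 3.94, 4.35 and 5.20 in controls. It was higher in every Titan mouse than in every control of its age, 3.03-fold at 11 weeks and 2.44-fold at 19-21 weeks (adjusted p = 8.23e-06 at the later age). It was the 1 gene of the 44 past the threshold at both ages, and Titan mouse 4 lay with its group here. The 8 leukocyte markers summed to 14.6 to 27.2 CPM in Titan mice and 14.97 to 18.4 in controls at 11 weeks, and to 16.7 to 36.2 and 12.3 to 28.9 CPM at 19-21 weeks, and 5 of the 8 had means under 1 CPM. Among them Cd3e, a T cell marker, was higher without overlap in Titan mice at 11 weeks (1.79 to 3.91 against 0.0610 to 0.414 CPM) and overlapped at 19-21 weeks (1.60 to 2.64 against 0 to 2.24 CPM). Itgax, a marker of dendritic cells and some macrophages, overlapped at 11 weeks and was higher without overlap at 19-21 weeks (0.595 to 1.22 against 0.172 to 0.587 CPM). All other markers of this list overlapped between the lines at both ages. Ptprc, which gave most of the sum, had medians of 14.8 CPM in Titan mice and 14.7 in controls at 11 weeks. Medians at that age were higher in Titan mice for Ccr2 (2.74 and 1.58 CPM) and lower for Cd79a (0.156 and 0.169) and Ms4a1 (0.292 and 0.427). The part of these markers in the Pygb difference was not tested. Pygl (ENSMUSG00000021069, chromosome 12, 70190811 to 70231488) had 756, 653, 552, 422 and 640.3 CPM in Titan mice and 482, 417, 510.4, 479 and 527 in controls at 11 weeks. This missed the threshold with all mice (log2 fold change 0.32 ± 0.13 SE, adjusted p = 0.108) and passed it without Titan mouse 4 (log2 fold change 0.43, adjusted p = 0.0166). At 19-21 weeks Pygl had 335, 498, 409.7, 409 and 487 CPM in Titan mice and 489.7, 465, 470.0, 416 and 379.7 in controls, which overlapped.

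The share of Pygb in the reads of both phosphorylase genes needs no scaling between libraries. It was 2.53, 2.79, 2.95, 3.69 and 2.68% in 11-week-old Titan mice and 1.26, 1.53, 1.06, 1.27 and 0.971% in controls. At 19-21 weeks it was 2.68, 1.81, 2.09, 3.54 and 2.07% in Titan mice and 0.816, 0.885, 0.831, 1.04 and 1.35% in controls. The lines did not overlap at either age. The difference of the means was 1.71 percentage points at 11 weeks and 1.45 at 19-21 weeks (two-sided exact permutation p = 0.00794 at each age, the smallest that 5 against 5 mice can give; 0.0635 after adjustment over 16 tests, above the threshold). Even in Titan mice, Pygb gave under 4% of these reads. Per kilobase of exon, Pygl had 71.1 CPM and Pygb 2.002 CPM over the 20 mice.

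Gbe1 (ENSMUSG00000022707, chromosome 16, 70313949 to 70569716), the glycogen branching enzyme, had 198, 215, 185, 148 and 208 CPM in Titan mice and 159, 134, 151, 122 and 131 in controls at 11 weeks. Titan mice had more Gbe1 RNA (log2 fold change 0.45 ± 0.13 SE, adjusted p = 0.0209), mouse 4 lying below the highest control, and the call was lost in each of 3 fits, without Titan mouse 2, Titan mouse 5 or control mouse 4 (adjusted p up to 0.0609). At 19-21 weeks Gbe1 had 125, 178, 169, 127 and 150.4 CPM in Titan mice and 155, 116, 175, 153 and 119.6 in controls (log2 fold change 0.06 ± 0.13 SE, adjusted p = 0.816). Gys2, the glycogen synthase of liver, and Ugp2, which makes its UDP-glucose, differed little at 11 weeks (log2 fold changes 0.03 and 0.07); at 19-21 weeks they were -0.23 and -0.40, with adjusted p = 0.101 for Ugp2. The glycogen-targeting subunits of protein phosphatase varied widely between mice of a group. Ppp1r3b ranged over 115 to 488 CPM and Ppp1r3c over 71.1 to 211 CPM among the 11-week-old controls alone, and their log2 fold changes at that age had standard errors of 0.33 and 0.30. Ppp1r3g, with 0 to 35 reads per library, was too low for a difference to be detectable at this depth (log2 fold change -0.20, ± 0.76 SE at 11 weeks).

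**Figure D3:**
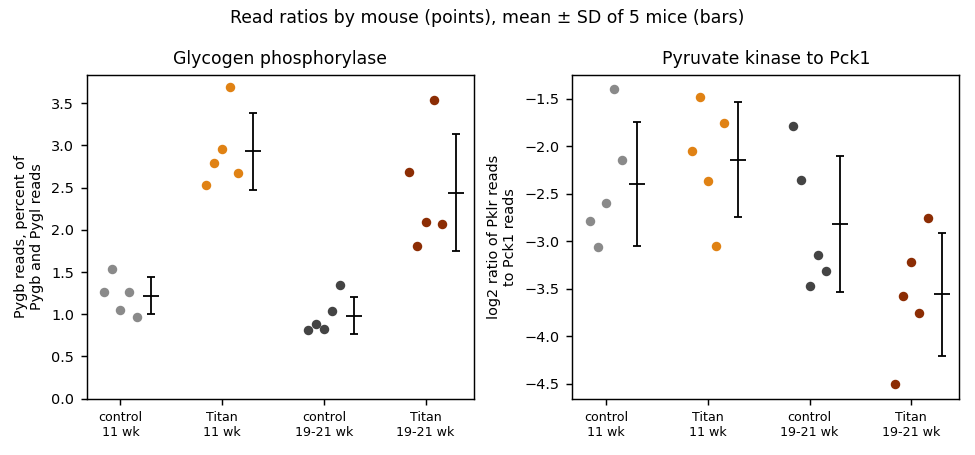
Left, Pygb reads as a percentage of Pygb and Pygl reads (y axis, from 0) by mouse in the 4 groups (x axis), with mean ± SD beside the points; every Titan mouse lies above every control of its age. Right, log2 ratio of Pklr to Pck1 reads by mouse, which overlaps between the lines at both ages and is lowest in Titan mice of 19-21 weeks.

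All 5 genes of fructose and galactose metabolism passed the threshold at 11 weeks, 3 higher and 2 lower in Titan mice, and none at 19-21 weeks. Khk (ENSMUSG00000029162, chromosome 5, 30921431 to 30931248), the ketohexokinase that opens fructose breakdown, had 439, 406, 366, 205 and 399.7 CPM in Titan mice and 223, 235, 273, 249.9 and 287 in controls at 11 weeks. Mouse 4 had the lowest level of all 10 mice and the other Titan mice the 4 highest (log2 fold change 0.52 ± 0.17 SE, adjusted p = 0.0395), and the call held in 2 of the 10 fits that left out 1 mouse, those without Titan mouse 4 and without control mouse 5. At 19-21 weeks Khk had 193, 288, 204, 199.6 and 269 CPM in Titan mice and 272, 237, 316, 219.8 and 222 in controls, with overlap (log2 fold change -0.14 ± 0.17 SE, adjusted p = 0.664). Tkfc (ENSMUSG00000034371, chromosome 19, 10587791 to 10605654) encodes triokinase, which phosphorylates the glyceraldehyde made from fructose. It had 813, 747, 555, 307 and 647 CPM in Titan mice and 286, 255, 299, 279 and 357 in controls at 11 weeks. This was the largest difference of the 44 genes after Pygb (log2 fold change 1.06 ± 0.19 SE, adjusted p = 0.00051). Without Titan mouse 4 it was larger (log2 fold change 1.23, adjusted p = 5.49e-06). That mouse was the lowest of the 5 and was picked out by such genes, so the larger value is not separate support. At 19-21 weeks Tkfc had 257, 369, 392, 357 and 369 CPM in Titan mice and 275, 293, 341, 266 and 238 in controls, with 4 of 5 Titan mice above every control and mouse 1 below most of them (log2 fold change 0.30 ± 0.18 SE, adjusted p = 0.329).

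Sord (ENSMUSG00000027227, chromosome 2, 122234749 to 122265340), sorbitol dehydrogenase, which makes fructose from sorbitol, went the other way. It had 342, 314, 371, 329 and 348 CPM in Titan mice and 433, 395, 461, 503 and 475 in controls at 11 weeks. It was lower in every Titan mouse than in every control (log2 fold change -0.41 ± 0.08 SE, adjusted p = 0.00188), mouse 4 included. At 19-21 weeks Sord had 494, 434, 432, 402 and 433 CPM in Titan mice and 433, 444, 486, 426 and 365 in controls, nearly the same (log2 fold change 0.03 ± 0.08 SE, adjusted p = 0.880). In the galactose pathway the kinase was higher and the next enzyme lower. Galk1 (ENSMUSG00000020766, chromosome 11, 116008457 to 116012719), galactokinase, had 52.6, 59.2, 52.9, 35.5 and 47.4 CPM in Titan mice and 24.4, 29.1, 33.7, 39.02 and 37.7 in controls at 11 weeks. Titan mice had more of it, all but mouse 4 above every control (log2 fold change 0.59 ± 0.13 SE, adjusted p = 0.00380). At 19-21 weeks Galk1 had 38.9, 45.6, 48.5, 33.9 and 43.6 CPM in Titan mice and 33.02, 31.95, 28.8, 29.4 and 33.5 in controls, without overlap, just outside the threshold (log2 fold change 0.43 ± 0.13 SE, adjusted p = 0.0514). Galt (ENSMUSG00000036073, chromosome 4, 41755228 to 41758695), the galactose phosphate uridylyltransferase, had 32.8, 30.3, 29.2, 37.6 and 34.1 CPM in Titan mice and 27.4, 69.8, 58.7, 75.1 and 47.2 in controls at 11 weeks. At 19-21 weeks Galt had 22.8, 25.5, 31.8, 31.7 and 30.4 CPM in Titan mice and 45.97, 84.5, 30.1, 53.2 and 32.05 in controls. Controls ranged widely and Titan mice narrowly, with control mouse 1 below all Titan mice at 11 weeks. The difference was of like size at both ages, past the threshold at 11 weeks (log2 fold change -0.76 ± 0.25 SE, adjusted p = 0.0413) and not at 19-21 weeks (log2 fold change -0.78 ± 0.25 SE, adjusted p = 0.0575). The call at 11 weeks held in 3 of the 10 fits that left out 1 mouse, those without Titan mouse 4, control mouse 1 or control mouse 5.

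**Figure D4:**
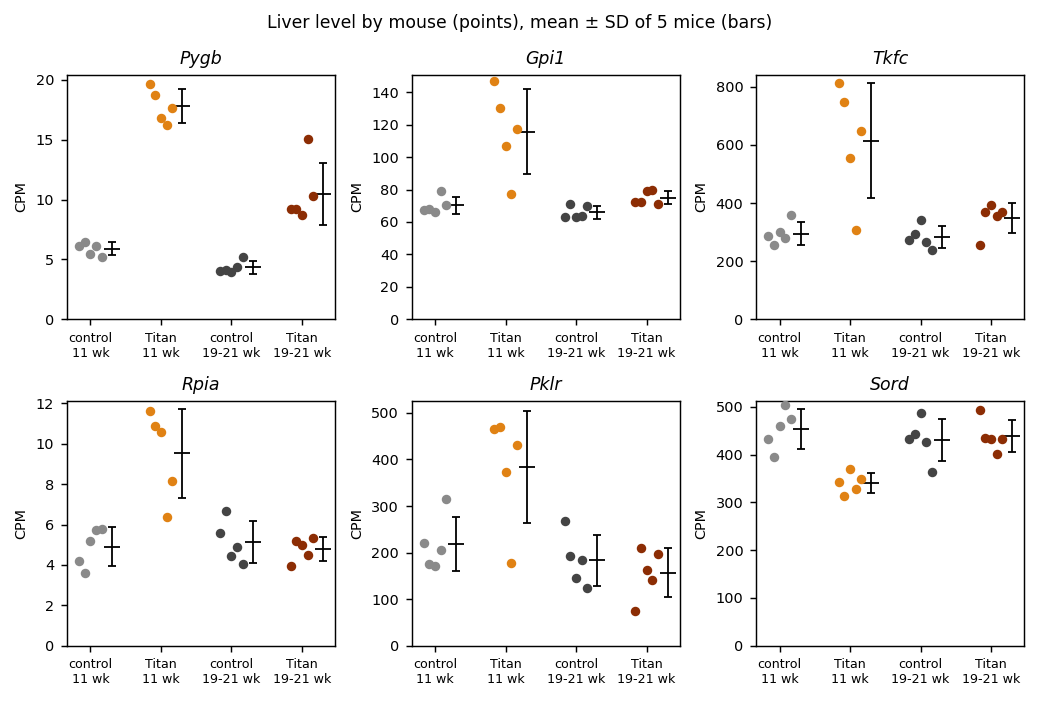
Level in CPM (y axis, from 0) by mouse in the 4 groups (x axis) for Pygb, Gpi1, Tkfc, Rpia, Pklr and Sord, with mean ± SD of 5 mice beside the points. Pygb is higher in Titan mice at both ages. The next 4 genes are high in 11-week-old Titan mice, with mouse 4 the lowest of the 5, and Sord is low in all 5 of these mice.

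In the pentose phosphate pathway, 4 of 8 genes were higher and 1 was lower in 11-week-old Titan mice, and none passed the threshold at 19-21 weeks. Pgd (ENSMUSG00000028961, chromosome 4, 149149991 to 149166771), phosphogluconate dehydrogenase, makes NADPH and ribulose phosphate. It had 98.9, 89.4, 72.8, 47.3 and 93.2 CPM in Titan mice and 28.6, 37.9, 44.97, 55.2 and 46.1 in controls at 11 weeks. Of the 5 Titan mice, 4 lay above every control (log2 fold change 0.92 ± 0.20 SE, adjusted p = 0.00328). At 19-21 weeks Pgd had 26.1, 54.03, 53.5, 35.3 and 42.7 CPM in Titan mice and 37.99, 45.2, 40.3, 42.7 and 48.7 in controls, the Titan mice spreading on both sides of the controls (log2 fold change -0.02 ± 0.20 SE, adjusted p = 0.969). Rpia (ENSMUSG00000053604, chromosome 6, 70765720 to 70792232), the isomerase that makes ribose phosphate, had 11.6, 10.9, 10.6, 6.35 and 8.15 CPM in Titan mice and 4.22, 3.58, 5.20, 5.73 and 5.79 in controls at 11 weeks. All Titan mice lay above all controls (log2 fold change 0.95 ± 0.17 SE, adjusted p = 0.000733). At 19-21 weeks Rpia had 3.94, 5.18, 4.98, 4.47 and 5.35 CPM in Titan mice and 5.57, 6.68, 4.42, 4.88 and 4.03 in controls, with overlap (log2 fold change -0.09 ± 0.19 SE, adjusted p = 0.816).

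Tkt (ENSMUSG00000021957, chromosome 14, 30548359 to 30574720) and Taldo1 (ENSMUSG00000025503, chromosome 7, 141392199 to 141402968) encode transketolase and transaldolase, which return pentose phosphates to glycolysis. Tkt had 226, 238, 201, 143 and 230.3 CPM in Titan mice and 129, 119.5, 162, 168 and 154 in controls at 11 weeks. Tkt was higher in Titan mice (log2 fold change 0.51 ± 0.13 SE, adjusted p = 0.0130), mouse 4 lying among the controls. Taldo1 had 101, 86.97, 78.9, 67.1 and 79.3 CPM in Titan mice and 68.4, 62.1, 71.3, 67.1 and 67.3 in controls at 11 weeks. Its difference was the smallest of the 16 genes that were higher (log2 fold change 0.30 ± 0.10 SE, adjusted p = 0.0395), and held in 3 of the 10 fits that left out 1 mouse, those without Titan mouse 3, Titan mouse 4 or control mouse 3. At 19-21 weeks Tkt had 106, 152, 164, 120.3 and 141 CPM in Titan mice and 139, 157, 149, 145 and 129 in controls. Taldo1 then had 54.9, 69.6, 73.9, 55.9 and 68.4 CPM in Titan mice and 66.8, 70.2, 65.9, 72.6 and 64.2 in controls. Both overlapped between the lines at that age, with log2 fold changes of -0.07 and -0.07.

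H6pd (ENSMUSG00000028980, chromosome 4, 149979475 to 150009023), the hexose phosphate dehydrogenase of the endoplasmic reticulum, had 403, 343, 424, 438 and 391 CPM in Titan mice and 499, 576, 382, 516 and 532 in controls at 11 weeks. It was lower in Titan mice, at the threshold (log2 fold change -0.33 ± 0.11 SE, adjusted p = 0.0473). Control mouse 3 lay below 4 of the 5 Titan mice, and the call held in 2 of the 10 fits that left out 1 mouse (without control mouse 3 and without Titan mouse 4) and in 1 of 8 other settings (DESeq2). At 19-21 weeks H6pd had 449, 473, 518, 586 and 409 CPM in Titan mice and 413, 464, 445, 461 and 508 in controls, with overlap. G6pdx, the cytosolic dehydrogenase that opens the pathway, had 4.52 to 12.02 CPM in Titan mice and 4.25 to 8.42 in controls at 11 weeks and did not pass the threshold (log2 fold change 0.36 ± 0.23 SE, adjusted p = 0.344). Pgls and Rpe, its lactonase and epimerase, had log2 fold changes of -0.22 and 0.04 at 11 weeks and -0.19 and -0.11 at 19-21 weeks, none past the threshold.

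Of the 4 genes of the pyruvate dehydrogenase complex, Pdhb and Dlat were higher in 11-week-old Titan mice, and none passed the threshold at 19-21 weeks. Pdhb (ENSMUSG00000021748, chromosome 14, 8165996 to 8173025), a subunit of its dehydrogenase, had 89.2, 101, 78.8, 59.9 and 92.02 CPM in Titan mice and 64.9, 54.3, 62.6, 47.7 and 62.3 in controls at 11 weeks (log2 fold change 0.53 ± 0.13 SE, adjusted p = 0.00826). Dlat (ENSMUSG00000000168, chromosome 9, 50634633 to 50659780), its acetyltransferase, had 68.8, 68.3, 72.7, 60.8 and 72.9 CPM in Titan mice and 46.4, 51.3, 50.6, 54.6 and 56.4 in controls, and all Titan mice lay above all controls (log2 fold change 0.41 ± 0.10 SE, adjusted p = 0.0101). Pdha1 (ENSMUSG00000031299, chromosome X, 160122209 to 160138413), the other dehydrogenase subunit, had 184, 194, 159, 127 and 172 CPM in Titan mice and 143, 133, 153, 130.4 and 139 in controls. It missed the threshold with all mice (log2 fold change 0.26 ± 0.11 SE, adjusted p = 0.112) and passed it without Titan mouse 4 (log2 fold change 0.34, adjusted p = 0.0205). At 19-21 weeks Pdhb had 62.4, 84.7, 55.4, 58.8 and 54.8 CPM in Titan mice and 71.9, 66.1, 73.1, 60.6 and 63.4 in controls. Dlat then had 41.05, 68.4, 62.2, 51.95 and 60.8 CPM in Titan mice and 59.1, 57.5, 51.8, 61.7 and 64.9 in controls. Pdha1 had 122, 167, 124, 113 and 128 CPM in Titan mice and 139, 135, 148, 137 and 127 in controls at that age. All 3 overlapped between the lines at that age. Pdhx, which binds the third enzyme of the complex, had a log2 fold change of -0.10 at 11 weeks and -0.36 at 19-21 weeks (adjusted p = 0.0578).

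With age, 10 of the 44 genes were lower in Titan liver and Sord was higher. Of these 11 calls, 3 held in all 10 fits that left out 1 mouse (Gpi1, Pygb and Rpia). Between 11 and 19-21 weeks, 10 of the 44 were lower (22.7%, beside 0.762% of all tested genes) and 1 was higher (2.27%, beside 0.486%), with a median log2 fold change of -0.30 over the 44 and 0.02 over all tested genes. In control mice none of the 44 passed the threshold (beside 0.0871% of all tested genes in either direction), with a median of -0.04; 4 had an unadjusted p under 0.05, and DESeq2 called none. The 10 that fell in Titan mice were Gpi1, Eno1, Pklr, Fbp1, Pcx, Pygb, Tkfc, Pgd, Rpia and Tkt, and the 1 that rose was Sord. The 11-week-old Titan mice enter both this comparison and that of the lines at 11 weeks, so the 2 sets of values are given side by side and are not independent. Pklr, with the largest change, fell from 384 ± 121 to 157 ± 53.5 CPM in Titan mice as mean ± SD of 5 mice (log2 fold change -1.29 ± 0.28 SE, adjusted p = 0.0284), and was at 218 ± 57.97 and 183 ± 55.2 in controls of 11 and 19-21 weeks. Rpia fell from a mean of 9.52 ± 2.20 to 4.79 ± 0.576 CPM (log2 fold change -0.99 ± 0.18 SE, adjusted p = 0.00988), without overlap between the ages. Pgd fell from 80.3 ± 20.9 to 42.3 ± 11.98 CPM (log2 fold change -0.92 ± 0.20 SE, adjusted p = 0.0297). Each of these 3 was at or below the control mean at 19-21 weeks.

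**Figure D5:**
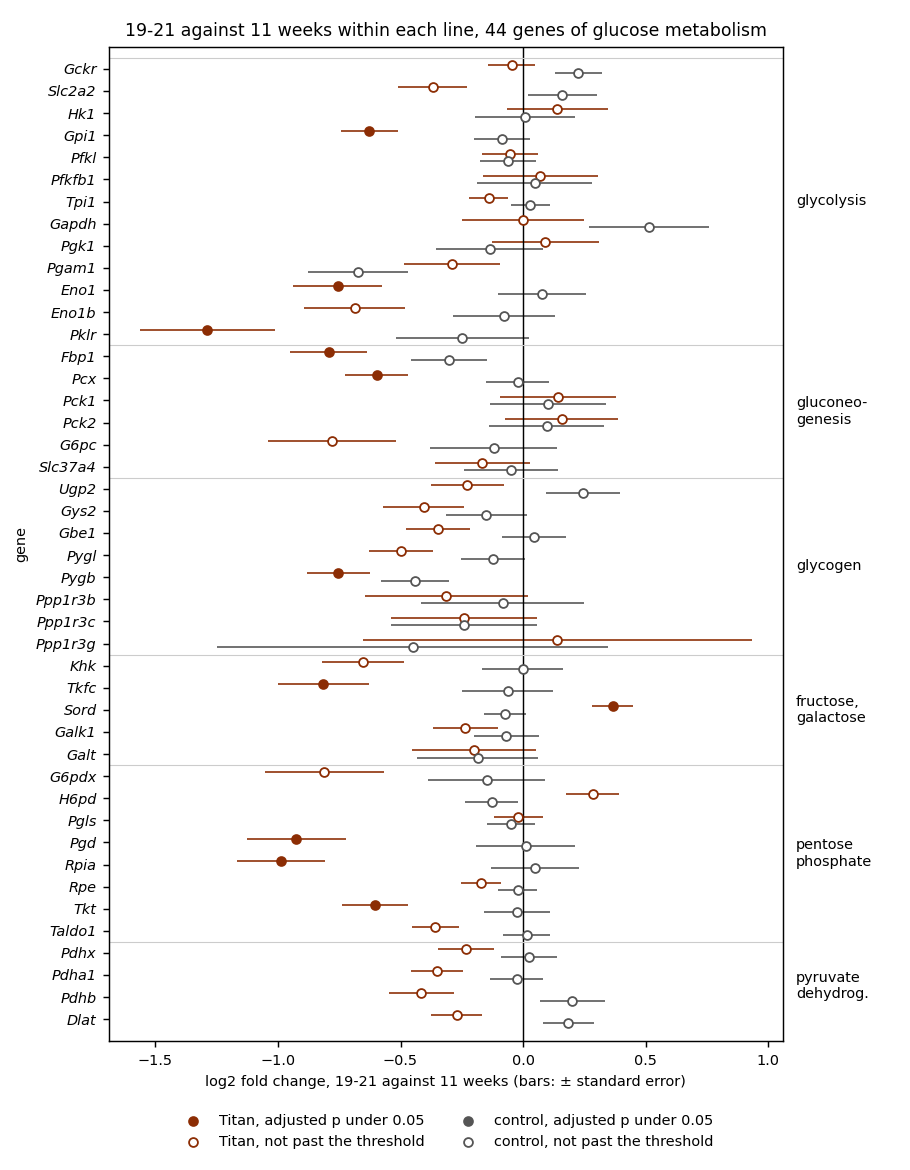
Log2 fold change of 19-21 against 11 weeks (x axis) for the 44 genes (y axis, grouped by branch) in Titan mice (brown) and control mice (grey), with standard errors as bars and filled points for an adjusted p under 0.05. In Titan mice 10 points are filled to the left of 0 and 1, Sord, to the right; in controls none is filled.

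Among the others, Tkfc fell from 614 ± 198 to 349 ± 52.9 CPM in Titan mice (log2 fold change -0.82 ± 0.18 SE, adjusted p = 0.0354). Fbp1 fell from 953 ± 248 to 550.0 ± 95.3 CPM (log2 fold change -0.79 ± 0.16 SE, adjusted p = 0.0176), without overlap between the ages. Fbp1 was also lower in every 19-21-week-old control than in every 11-week-old one, with a log2 fold change of -0.30 that did not pass the threshold (adjusted p = 0.834). Pygb fell without overlap (log2 fold change -0.75 ± 0.13 SE, adjusted p = 0.00707) and was still above the controls at 19-21 weeks. The Pygb mean was lower at the later age in controls too, 5.89 ± 0.553 and 4.33 ± 0.508 CPM, with overlap (log2 fold change -0.44 ± 0.14 SE, adjusted p = 0.504). In Titan mice its share of the reads of Pygb and Pygl was 2.93 ± 0.453% at 11 and 2.44 ± 0.692% at 19-21 weeks (exact permutation p = 0.246). Gpi1 (log2 fold change -0.63), Eno1 (-0.76), Pcx (-0.60) and Tkt (-0.60) fell as well, with adjusted p from 0.0100 (Gpi1) to 0.0427 (Eno1). Sord rose from 341 ± 21.2 to 439 ± 33.4 CPM (log2 fold change 0.37 ± 0.08 SE, adjusted p = 0.0376), to the level of the controls, without overlap between the ages, but this call held in 3 of the 10 fits that left out 1 mouse (without 11-week-old Titan mouse 3 or 4 or 19-21-week-old Titan mouse 4; adjusted p up to 0.144 in the others) and in 4 of 8 other settings. The summed pericentral markers moved with age in Titan mice too, without overlap between the ages (2406 to 3947 CPM at 11 weeks, 4141 to 5976 CPM at 19-21 weeks), but Cyp2e1 gave most of the sum (median 2031 CPM at 11 and 3961 CPM at 19-21 weeks), 3 of the 7 markers were higher without overlap, and the medians of Glul (528 and 482 CPM) and Rhbg (0.966 and 0.680 CPM) were lower at the later age. The part of these markers in the changes was not tested. Of the 10 fits that left out 1 mouse, the call held in 7 for Fbp1 and in 5 for Pcx. It held in 4 for each of Pklr, Eno1, Pgd and Tkt, and in 3 for Tkfc. The number of genes lower with age in Titan mice depended on single libraries. It was 16 without 11-week-old Titan mouse 4, 3 without mouse 1, 3 without mouse 2 and 4 without mouse 5 of that group, and 3 without mouse 1, 5 without mouse 4 and 6 without mouse 5 of the 19-21-week-old Titan mice. With the share of reads on genes as a covariate it was 2, Gpi1 and Pygb, and in a fit of only the Titan mice also 2, Pygb and Rpia. That share was 48.2% to 56.6% (median 51.6%) in 11-week-old and 41.7% to 50.4% (median 48.9%) in 19-21-week-old Titan mice. The median numbers of reads on genes were 13971400 and 9524930.

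Whether the difference between the lines changed with age was tested as an interaction of line and age. None of the 44 genes passed the threshold (beside 0.00726% of all tested genes), so a difference between the ages in the effect of line is not shown for any of them. At an unadjusted p under 0.05, 19 of the 44 had an interaction, DESeq2 called 2 (Sord and Rpia), and 4 passed without Titan mouse 4 of 11 weeks (Gpi1, Pcx, Tkfc and Rpia, all with a smaller difference between the lines at the later age). Mouse 4 was picked out by its low levels in these same genes, so the 4 are not separate support for an interaction. Rpia, for example, had an interaction of -1.04 on the log2 scale (± 0.25 SE, adjusted p = 0.184), and Galt, with a like difference between the lines at both ages, one of -0.02 (± 0.35 SE).

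These data hold no enzyme activity or flux. At the RNA level, the log2 ratio of Pklr to Pck1 reads compared a glycolysis gene with a gluconeogenesis gene in each mouse. It was -2.05, -1.48, -2.37, -3.04 and -1.76 in 11-week-old Titan mice and -2.79, -3.05, -2.59, -1.40 and -2.15 in controls. At 19-21 weeks it was -4.50, -3.57, -3.22, -3.75 and -2.75 in Titan mice and -1.79, -2.35, -3.47, -3.14 and -3.31 in controls. Negative values mean more Pck1 than Pklr reads, which held in all 20 mice. The lines overlapped at both ages (exact permutation p = 0.524 at 11 weeks and 0.127 at 19-21 weeks). Within Titan mice the ratio was lower at 19-21 weeks, -3.56 ± 0.650 against -2.14 ± 0.603 (exact permutation p = 0.0159, 0.0847 after adjustment over 16 tests, above the threshold), and within controls it was -2.81 ± 0.716 against -2.40 ± 0.648 (exact permutation p = 0.357).

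Beside the 44 genes, other enzymes of these pathways were examined. Of 65 further enzyme and transporter genes, 55 were tested, of which 5 were higher (9.09%, beside 7.23% of all tested genes) and 1 lower (1.82%, beside 7.69%) in 11-week-old Titan mice, and 2 were higher and 2 lower at 19-21 weeks (3.64% each, beside 4.24% and 4.88%), with median log2 fold changes of 0.09 and 0.06. Pgm3, a mutase that makes amino sugar phosphates, had 40.96 ± 8.18 CPM in Titan mice and 21.03 ± 4.07 in controls at 11 weeks (log2 fold change 0.96 ± 0.18 SE, adjusted p = 0.000873). Ldha, a lactate dehydrogenase subunit, had 412 ± 54.5 and 298 ± 27.3 CPM (log2 fold change 0.47 ± 0.09 SE, adjusted p = 0.00156). Phkb, a subunit of phosphorylase kinase, had 67.6 ± 3.02 and 53.4 ± 7.60 CPM (log2 fold change 0.34 ± 0.09 SE, adjusted p = 0.0104). The fructose transporter gene Slc2a5 was lower in Titan mice at both ages, with 2.65 ± 0.924 and 6.02 ± 1.28 CPM at 11 weeks (log2 fold change -1.18 ± 0.28 SE, adjusted p = 0.00575) and 3.18 ± 1.23 and 6.35 ± 2.18 CPM at 19-21 weeks (log2 fold change -0.99 ± 0.29 SE, adjusted p = 0.0345). Mdh1, cytosolic malate dehydrogenase, was lower at 19-21 weeks, with 376 ± 59.7 and 527 ± 34.9 CPM (log2 fold change -0.49 ± 0.10 SE, adjusted p = 0.00299).

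Of 25 genes that regulate these pathways, all tested, 2 were higher (8%, beside 7.23% of all tested genes) and 1 lower (4%, beside 7.69%) in 11-week-old Titan mice, and 2 were higher (8%, beside 4.24%) and none lower at 19-21 weeks. The shares of both lists that were higher at 11 weeks thus lay near that of all tested genes. Fgf21, a hormone secreted by liver, had 5.44, 5.08, 4.16, 5.56 and 6.51 CPM in Titan mice and 2.45, 0.416, 2.28, 0.488 and 2.07 in controls at 11 weeks. At 19-21 weeks Fgf21 had 3.53, 3.91, 4.13, 16.5 and 4.84 CPM in Titan mice and 1.29, 0.451, 0.378, 1.71 and 0.419 in controls. It was higher in every Titan mouse than in every control of its age (log2 fold change 1.78 ± 0.48 SE, adjusted p = 0.0144 at 11 weeks; log2 fold change 3.09 ± 0.55 SE, adjusted p = 0.00113 at 19-21 weeks). Gsk3b, a kinase that inhibits glycogen synthase, was higher at both ages by a small amount, with 114 ± 3.33 and 94.5 ± 7.67 CPM at 11 weeks (log2 fold change 0.27 ± 0.06 SE, adjusted p = 0.00546) and an adjusted p of 0.0438 at 19-21 weeks. Irs2, an insulin receptor substrate, was lower in 11-week-old Titan mice, with 21.4 ± 6.92 and 45.6 ± 13.8 CPM (log2 fold change -1.09 ± 0.29 SE, adjusted p = 0.0138), and overlapped at 19-21 weeks. The gene of ChREBP itself, Mlxipl, had log2 fold changes of -0.10 at 11 weeks and -0.22 at 19-21 weeks (adjusted p = 0.662 and 0.295); it was added to the named genes after its values were seen.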

How the data were processed

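Liver RNA of 20 mice was sequenced after rRNA depletion in directional libraries. Per the submitters' processing notes the build was GRCm38 and the aligner STAR 2.5.3a. The authors deposited raw counts per gene, unstranded and by strand, without multi-mapped reads. The strand holding 96.8% to 97.5% of strand-assigned reads was used. Y-linked and histone genes were not tested. Groups followed the sample labels. The titles' replicate numbers gave no clear sign of pairing (correlation over 0.1 in 4 of 30 pairs of equal number), so mice were taken as unpaired. Whether the numbers mark a shared cage, litter or batch is not known from this.

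Counts were fitted with edgeR 4.0.16 in R 4.3.3 (filterByExpr, TMM, quasi-likelihood test, 1 fit of the 4 groups), with Benjamini-Hochberg adjustment over 13783 genes at 0.05. The steps were tested on simulated data. Read ratios were compared by two-sided exact permutation over 252 splits. Near copies were found with BLAST 2.17.0 (at least 90% identity over 100 bases) against GENCODE M21 transcripts, and positions come from that annotation; promoters are RefSeq's. Tables and figures used Python 3.11.15 and matplotlib 3.10.9. Alternatives were DESeq2 1.42.0, RLE size factors, both strands, no filter, at least 10 counts in every mouse, the replicate number, the share of reads on genes, only the 2 groups compared, and each mouse left out.

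The genes, lists and tests were chosen with earlier results of these data known. Values by mouse are given for genes past the threshold, the highest of each branch by mean CPM, and pairs of related genes; of the 2 other lists, up to 6 with the smallest p among those past the threshold, 1 of which is not reported here. Replicates are separate mice, so p-values set the differences between groups against the spread between these mice.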

Additional observations from a re-analysis of the deposited data

Results flagged for a closer look

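Of 176 sets of 5 mice (44 genes in 4 groups), 8 had 1 mouse far from the other 4 by Dixon's test at its 95% limit of 0.71, where chance gives about 1 in 20, or 8.8. Fbp1 had 521 CPM in 19-21-week-old control mouse 3, below the next, 615 CPM. G6pc had 934 CPM in 19-21-week-old control mouse 1, above the next, 500.2 CPM. Gys2 had 122 CPM in 11-week-old control mouse 4, below the next, 136 CPM. Tkfc had 257 CPM in 19-21-week-old Titan mouse 1, below the next, 357 CPM. Pygb had 15.0 CPM in 19-21-week-old Titan mouse 4, above the next, 10.3 CPM, and the difference between the lines at that age stayed past the threshold without this mouse. In 19-21-week-old Titan mouse 2, Ppp1r3g had 2.15 CPM (next 0.675), Pdha1 167 CPM (next 128) and Pdhb 84.7 CPM (next 62.4). That mouse also had the highest sum of adipocyte markers, 39.9 CPM, nearly all from Cidea.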

How the results depend on the processing

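Of the 19 differences between the lines at 11 weeks, 13 stayed past the threshold in all 8 other settings and in all 10 fits without 1 mouse, and none of the called differences changed direction in any setting; at 19-21 weeks this held for 1 of 2 (Pygb), and for age in Titan mice for 1 of 11 (Pygb). Genes lower at 11 weeks numbered 1 in place of 3 with the share of reads on genes as a covariate, and 1 to 3 without 1 mouse (1 without Titan mouse 1, 2, 3 or 5 or control mouse 2 or 4); genes higher numbered 12 to 20. At 19-21 weeks, genes higher numbered 1 in place of 2 without a filter, with the replicate block and with the covariate, and 1 to 2 without 1 mouse (1 without control mouse 1, 3 or 5 or Titan mouse 3); genes lower numbered 2 with DESeq2 and 1 without a filter in place of 0, and 0 to 2 without 1 mouse (1 without control mouse 3 or 5, 2 without Titan mouse 2). With age in Titan mice, genes lower numbered 16 with DESeq2, 6 with the replicate block, 2 with the covariate and 2 in a fit of the Titan mice alone, in place of 10, and 3 to 16 without 1 mouse; genes higher numbered 0 in place of 1 without a filter, with the replicate block, with the covariate and in that fit, and 0 to 1 without 1 mouse. For the interaction, DESeq2 gave 1 higher and 1 lower in place of 0, and 0 to 4 were lower without 1 mouse (4 without 11-week-old Titan mouse 4). With the replicate block, 14 genes were higher and 2 lower at 11 weeks. The summed Eno1 and Eno1b change with age in Titan mice was -0.73 with the replicate block, no longer past the threshold, and -0.86 to -0.63 without 1 mouse; these 2 settings were chosen after seeing the data. Adjusted p-values of the read shares and ratios say nothing of their stability, since 5 against 5 mice cannot give less than 0.00794 before adjustment. The cause of these changes was not tested. Pck2 and Ppp1r3g had few reads in every library, and Gapdh and Pgam1 few that no near copy shares, which limits what differences in them are detectable.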
